A study of Mus musculus with 8 samples.

Results

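The genes described here are 9 regulators of the mitochondrial route of apoptosis, Bcl2, Bcl2l1, Mcl1, Bax, Bak1, Bcl2l11, Bbc3, Apaf1 and Casp9. They were taken by symbol from a table of 21827 genes, and all 9 were found, with 1 row each. Their RNA was measured in 8 libraries from retinas of slc:ICR mice. Whole retinas were used at embryonic days 15 and 18 (E15 and E18), and retinas at postnatal days 2, 5 and 8 (P2, P5 and P8) were dissociated and sorted on Cd73, a surface enzyme of rod photoreceptor precursors, into a positive fraction (Cd73PC) and a negative fraction (Cd73NC). The labels name no engineered allele and no treatment for any group. Retinas were pooled before sorting and the cells were stained with propidium iodide, a dye that enters dead cells, whereas the embryonic samples were not sorted. Each condition had a single library, and therefore no spread between replicates, test or p-value could be given. In place of these, each value has the lower and upper bounds that Cufflinks gave for it, which cover the estimate within a library and not the spread between animals or sorts.

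In the mitochondrial route, the guardians Bcl2, Bcl2l1 (whose main product is Bcl-xL) and Mcl1 hold the effectors Bax and Bak1 in check. BH3-only proteins such as Bcl2l11 (Bim) and Bbc3 (Puma) bind the guardians or the effectors through a short helix, the BH3 domain, and free or activate the effectors, which then open the outer mitochondrial membrane. Cytochrome c that escapes binds Apaf1, Apaf1 assembles into the apoptosome, and the apoptosome activates the initiator caspase Casp9, which cleaves further caspases. In the rodent retina, developmental death removes ganglion cells around birth and cells of the inner nuclear layer and some photoreceptors in the first postnatal weeks.

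The BH3 domain is the feature that ties 7 of the 9 genes together, so its core is shown as coding sequence, read from GENCODE vM1 transcripts on NCBIM37 (mm9), 5′ to 3′ on the coding strand. Capitals mark the codon of the conserved leucine and the codons of the small residue and aspartate that follow it.
Bcl2: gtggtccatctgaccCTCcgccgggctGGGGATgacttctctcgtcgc
Bcl2l1: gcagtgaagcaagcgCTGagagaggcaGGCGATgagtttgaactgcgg
Mcl1: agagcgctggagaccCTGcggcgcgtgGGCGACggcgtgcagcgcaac
Bax: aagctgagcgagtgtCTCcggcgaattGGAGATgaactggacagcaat
Bak1: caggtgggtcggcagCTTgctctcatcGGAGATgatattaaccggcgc
Bcl2l11: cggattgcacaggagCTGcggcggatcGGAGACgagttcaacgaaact
Bbc3: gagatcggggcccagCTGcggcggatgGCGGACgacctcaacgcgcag
The guardian stretches lay in exon 1 of Bcl2 (chr1:108609146-108609193, minus strand), exon 2 of Bcl2l1 (chr2:152655427-152655474, minus strand) and exon 2 of Mcl1 (chr3:95463344-95463391, plus strand). Those of the effectors lay in exon 3 of Bax (chr7:52721361-52721408, minus strand) and exon 4 of Bak1 (chr17:27159470-27159517, minus strand). Those of the BH3-only genes lay in exon 3 of Bcl2l11 (chr2:127972871-127972918, plus strand) and exon 3 of Bbc3 (chr7:16899107-16899154, plus strand). Of the 48 bases aligned without gaps, Bcl2l11 and Bbc3 shared 29 (60.4%), the highest of all pairs, and Bcl2l1 and Bax shared 17 (35.4%), the lowest.

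Apaf1 and Casp9 carry no BH3 domain, and their defining sites are shown in the same way. Capitals mark the codons of the first glycine and of the last glycine, lysine and serine of the nucleotide-binding loop of Apaf1, and in Casp9 the codons around the catalytic cysteine.
Apaf1: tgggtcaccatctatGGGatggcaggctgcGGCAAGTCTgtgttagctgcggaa
Casp9: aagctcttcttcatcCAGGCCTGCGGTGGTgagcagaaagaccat
The Apaf1 stretch lay in exon 4 (chr10:90540307-90540360, minus strand), and the Casp9 stretch was spliced from exons 6 and 7 (within chr4:141363147-141367467, plus strand).

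All 9 genes reached 1 FPKM (a level of mapped fragments corrected for transcript length and for library size) in at least 1 library. They fell into 2 tiers. Bax, Bcl2l1 and Mcl1 were the 3 highest members in every library, between 34.6 and 98.6 FPKM, and the other 6 stayed between 0.338 and 16.4 FPKM. The half-width between the bounds was at most 9.80% of the value in the high tier, and up to 34.2% for Bcl2 and 29.6% for Bbc3, the genes with the lowest values. For Bax the deposited FPKM lay above its own upper bound in 8 of 8 libraries and for Bcl2l1 in 7 of 8, so the bounds of these genes were only compared with each other. The reason is not given in the sources used here.

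**Figure D1:**
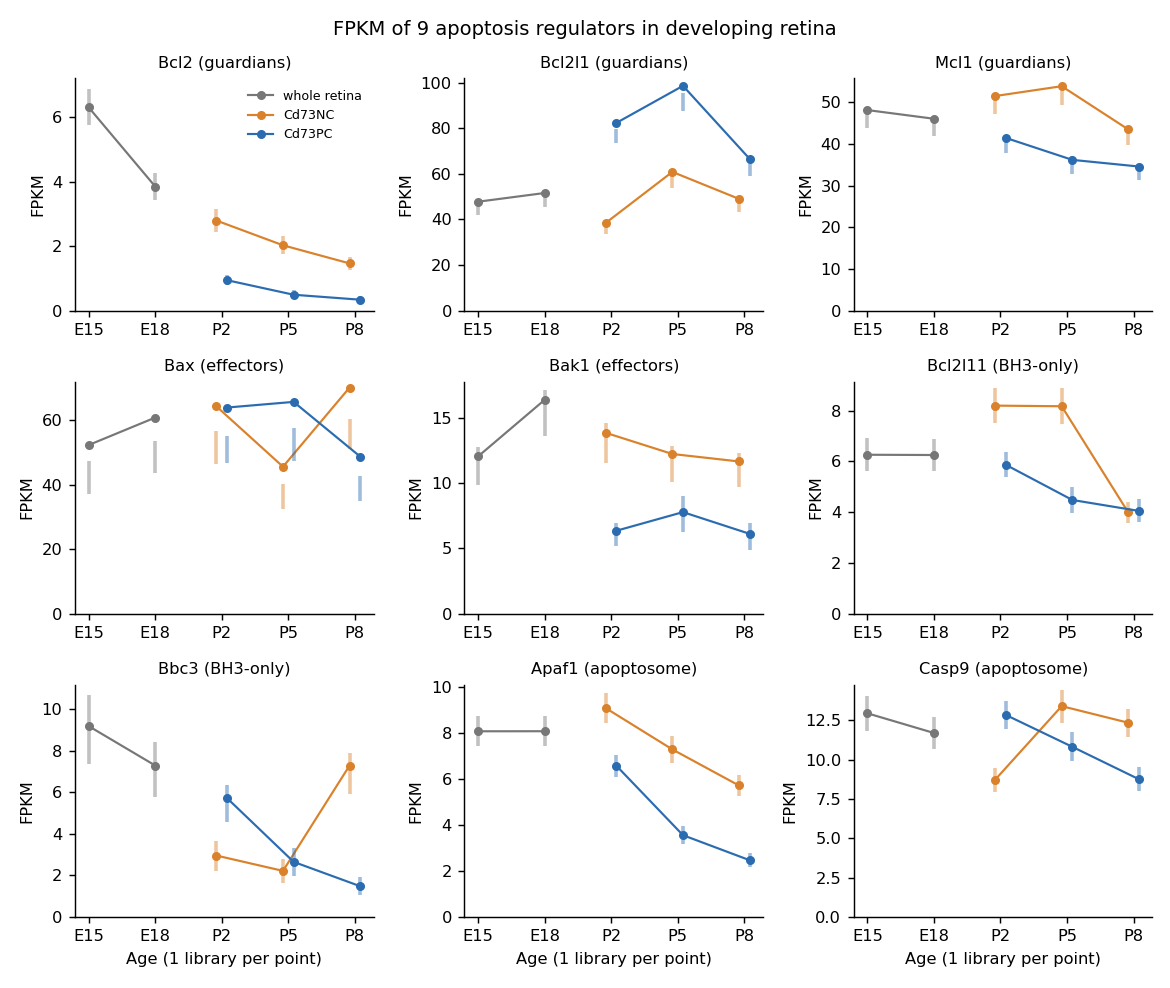
FPKM (vertical axis, from 0) of the 9 genes against age, with whole retina in grey, Cd73NC in orange and Cd73PC in blue. Each point is 1 library and the pale bar is the range between its Cufflinks bounds; Bcl2 and Bak1 were lower in Cd73PC than in Cd73NC at P2, P5 and P8, and the Bbc3 lines of the fractions cross.

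Differences between libraries are given as log2 ratios of FPKM + 1, which understate the difference of low genes such as Bcl2, and a gene was called higher or lower where it passed 1.5-fold, the threshold of the study between fractions. The same threshold was applied to 13411 expressed genes, and their shares give the background for each count. At P2, 2 of the 9 genes were higher in Cd73PC than in Cd73NC (Bcl2l1 and Bbc3; background 13.7%) and 2 were lower (Bcl2 and Bak1; background 23.3%). At P5, Bcl2l1 alone was higher (background 11.3%) and Bcl2, Bak1, Bcl2l11 and Apaf1 were lower (background 25.1%). At P8, none was higher (background 12.1%) and Bcl2, Bak1, Bbc3 and Apaf1 were lower (background 29.6%). From P2 to P8, the 9 genes had median log2 ratios of -0.31, -0.56 and -0.52, beside -0.13, -0.17 and -0.22 over all expressed genes. The split of calls moved with the scaling: at P5 it was 1 higher to 4 lower as deposited, 2 to 3 with upper-quartile scaling and 2 to 1 with quantile normalization, while the split over all expressed genes had 31.1%, 37.7% and 48.1% of calls higher. At P8 it was 0 to 4, 1 to 4 and 0 to 1 in the same order, with 29%, 37.6% and 48.2% of all calls higher, and at P2 it was 2 to 2, 2 to 2 and 3 to 2.

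**Figure D2:**
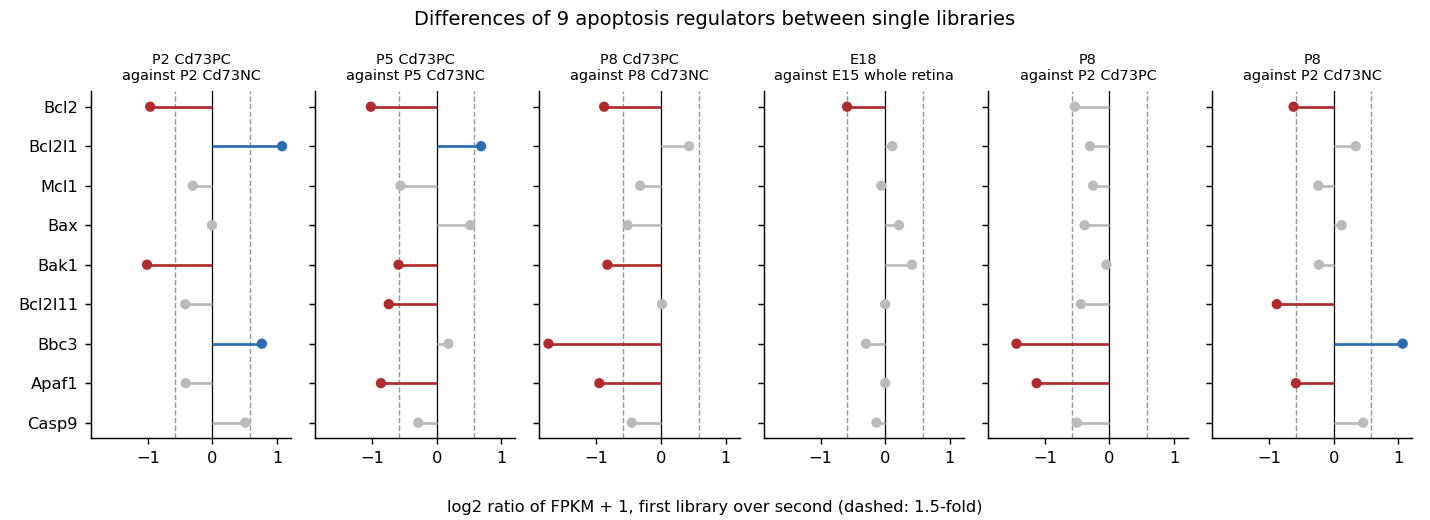
Log2 ratio of FPKM + 1 (horizontal axis) of the 9 genes in 6 comparisons of 2 libraries, with blue for higher and red for lower past 1.5-fold (dashed lines) and grey for the rest. Between the fractions, Bcl2 and Bak1 were past the line on the lower side at all 3 stages, and Bcl2l1 was on the higher side with log2 ratios of 1.08, 0.69 and 0.43 in order of age.

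The fractions differed in cell makeup, and these values stand beside every difference between them. All 6 rod markers were higher in Cd73PC at each stage, with a summed level of 3178 to 11517 FPKM in Cd73PC. In Cd73NC they summed to 50.4, 798 and 756 FPKM at P2, P5 and P8. Nt5e, the gene of Cd73, was at 97.3, 131 and 124 FPKM in Cd73PC and 2.43, 31.4 and 9.38 FPKM in Cd73NC. The 5 markers of dividing cells were all lower in Cd73PC at each stage, at 132, 31.1 and 2.77 FPKM summed in Cd73PC at P2, P5 and P8 and 430, 107 and 10.6 FPKM in Cd73NC. The 4 Müller glia markers were 115 to 198 FPKM summed in Cd73PC and 484 to 660 FPKM in Cd73NC, and the 4 bipolar markers were 42.9 to 179 FPKM and 181 to 1553 FPKM. The 5 microglial markers were all higher in Cd73PC at P2 (33.3 against 5.88 FPKM summed) and all had log2 ratios below 0 at P5 (28.9 against 43.0 FPKM, 2 past 1.5-fold) and P8 (90.4 against 115 FPKM, 1 past it). Amacrine markers were mixed, with log2 ratios below 0 for 3 of 4 at each stage and above it for Slc6a9, cone markers summed to 107 to 109 FPKM in Cd73PC and 41.3 to 141 FPKM in Cd73NC, and ganglion, horizontal and endothelial markers were each at or below 29.5 FPKM summed in every postnatal library. Ganglion markers stood at 330 FPKM summed at E15 and 206 FPKM at E18, and horizontal markers at 15.2 and 5.54 FPKM. The part of cell makeup in the differences below was not tested, and in such bulk libraries fewer cells of a type and less RNA per cell cannot be told apart.

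Among the guardians, the 3 genes went different ways between the fractions. Bcl2, the founding guardian, was at 6.30 FPKM at E15, 3.85 at E18, 2.79, 2.02 and 1.46 in Cd73NC at P2, P5 and P8, and 0.942, 0.492 and 0.338 in Cd73PC. Its order of levels ran from the embryonic retina through Cd73NC to Cd73PC with lower levels at later ages within each, an 18.6-fold range, and of the 7 neighbouring pairs in that order only the last had overlapping bounds. The 3 log2 ratios between the fractions, Cd73PC over Cd73NC, were -0.96, -1.02 and -0.88 in order of age, and -1.57, -2.04 and -2.11 without a pseudocount. Quantile normalization brought the P8 ratio to -0.55, under the threshold. Exons of Bcl2 overlap those of D630008O14Rik on the other strand by 497 bases, and the library kit does not mark strand. D630008O14Rik has no value in these data, so its part in the Bcl2 level could not be judged.

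Bcl2l1, which encodes the guardian that keeps many postmitotic neurons alive, was at 47.8 FPKM at E15 and 51.6 at E18. It was at 38.5, 60.9 and 49.0 FPKM in Cd73NC at P2, P5 and P8, and at 82.4, 98.6 and 66.6 FPKM in Cd73PC. The 3 Cd73PC libraries were the highest of the 8, with the bounds of the P8 Cd73PC and P5 Cd73NC libraries overlapping. Levels of FPKM + 1 in Cd73PC exceeded those in Cd73NC by factors of 2.11, 1.61 and 1.35 in order of age. At P8 the ratio passed the threshold only with upper-quartile scaling (log2 ratio 0.60 against 0.43). In both fractions the P5 library was the highest.

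Mcl1, a short-lived guardian protein that is quickly lost when its synthesis stops, varied least of the guardians. It was at 48.1 FPKM at E15, 46.0 at E18, 51.5, 53.8 and 43.5 in Cd73NC and 41.4, 36.2 and 34.6 in Cd73PC at P2, P5 and P8. All 3 Cd73PC libraries were below all 5 others, although the whole range was 1.56-fold and 6 of 7 neighbouring pairs had overlapping bounds. The ratio of Cd73PC to Cd73NC was -0.31, -0.56 and -0.32 on the log2 scale, under the threshold at each stage. The bounds of the fractions were nevertheless apart at each stage.

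Summed over the 3 guardians, Bcl2l1 made up 66.0%, 72.9% and 65.6% of the FPKM in Cd73PC at P2, P5 and P8, and between 41.5% and 52.2% in the other 5 libraries. Bcl2l1 was 1.93 to 2.73 times Mcl1 in Cd73PC and 0.748 to 1.13 times Mcl1 elsewhere. How often other genes set the Cd73PC libraries apart from the rest was not counted. The same limit holds for the orders of libraries given for single members. Bcl2 made up 6.16% of the sum at E15 and 0.333% in P8 Cd73PC.

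**Figure D3:**
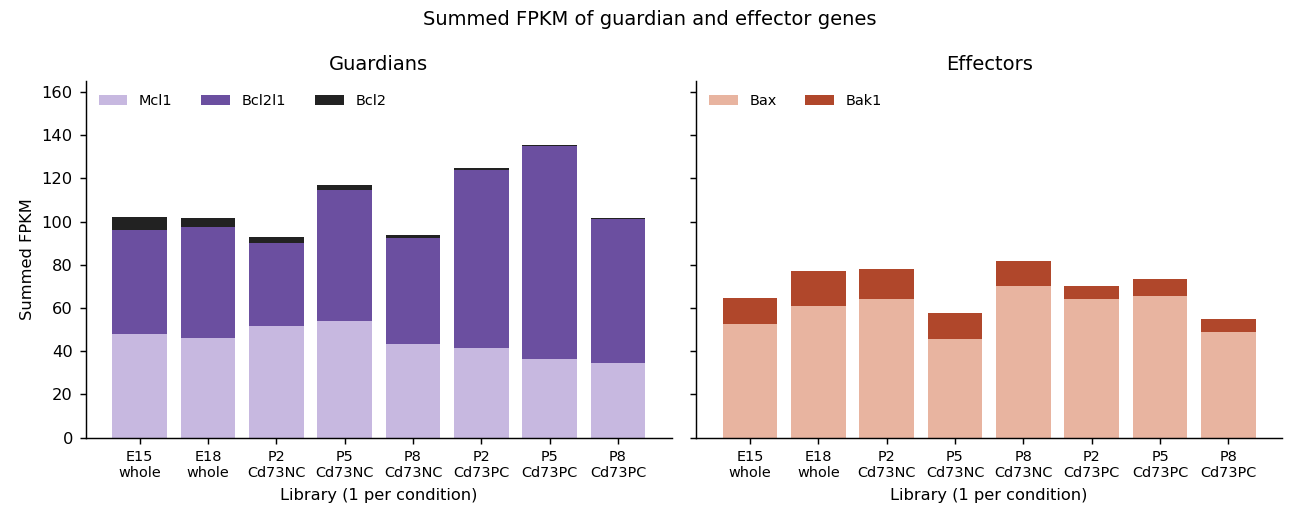
Summed FPKM (vertical axis, from 0) of the guardians Mcl1, Bcl2l1 and Bcl2 on the left and of the effectors Bax and Bak1 on the right, in each of the 8 libraries. Bcl2l1 takes the larger share of the guardian bar in the 3 Cd73PC libraries (65.6% to 72.9%), and Bak1 the smaller share of the effector bar there (9.03% to 11.1%).

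The effectors also differed from each other. Bax was at 52.4 FPKM at E15, 60.9 at E18, 64.4, 45.6 and 70.2 in Cd73NC and 64.0, 65.8 and 48.8 in Cd73PC at P2, P5 and P8. Its levels followed neither age nor fraction, and every neighbouring pair in order had overlapping bounds. The log2 ratios between the fractions were -0.01, 0.52 and -0.52 in order of age, with bounds overlapping at P2 and apart at P5 and P8. Upper-quartile scaling moved the P5 ratio to 0.62, past the threshold.

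Bak1 was at 12.04 FPKM at E15 and 16.4 at E18. It was at 13.8, 12.2 and 11.7 FPKM in Cd73NC at P2, P5 and P8 and at 6.35, 7.78 and 6.12 FPKM in Cd73PC, so the 3 Cd73PC libraries were the lowest of the 8, with bounds apart from the next. Taken on FPKM + 1, Cd73NC was 2.02-fold, 1.51-fold and 1.78-fold higher at P2, P5 and P8. The P5 log2 ratio of -0.59 lay just past the threshold and dropped under it with upper-quartile scaling (-0.50) and quantile normalization (-0.35), as did the P8 ratio with quantile normalization (-0.51). Exons of Bak1 overlap those of Ggnbp1 on the other strand by 177 bases, and Ggnbp1 had 0.158 to 0.901 FPKM. Bax was 7.97 to 10.1 times Bak1 in Cd73PC and 3.72 to 6.02 times Bak1 in the other 5 libraries.

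Bcl2 and Bak1 were the members called lower in Cd73PC at all 3 stages, which held for 12.7% of expressed genes, and no member was called higher at all 3, which held for 5.7%. With upper-quartile scaling Bcl2 was called lower and Bcl2l1 higher at all 3 stages, and with quantile normalization no member was called at all 3. The 250 bases before the RefSeq start of each (GRCm38.p6 table, matched once in NCBIM37) are shown because the promoters of these genes look unlike each other. Capitals mark GC boxes, searched as GGGCGG on both strands.
Bcl2: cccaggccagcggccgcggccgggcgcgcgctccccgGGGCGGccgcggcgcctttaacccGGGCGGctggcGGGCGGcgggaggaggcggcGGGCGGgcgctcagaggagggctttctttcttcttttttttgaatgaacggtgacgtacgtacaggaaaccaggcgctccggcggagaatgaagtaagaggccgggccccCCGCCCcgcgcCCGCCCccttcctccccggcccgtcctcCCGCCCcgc
Bak1: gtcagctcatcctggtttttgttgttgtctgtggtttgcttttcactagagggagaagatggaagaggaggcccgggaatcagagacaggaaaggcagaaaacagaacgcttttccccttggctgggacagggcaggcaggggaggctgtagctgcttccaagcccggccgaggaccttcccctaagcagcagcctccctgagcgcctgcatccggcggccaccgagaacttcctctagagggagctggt
The Bcl2 window (chr1:108610868-108611117, minus strand) was 74.8% G and C with 36 CpG and 7 GC boxes, and the Bak1 window (chr17:27165573-27165822, minus strand) was 58.4% G and C with 8 CpG and no GC box. GC boxes were present in 10 of the 14 promoter windows of the members, covering 7 of the 9 genes, and in 32.7% of all 32851 promoters in the table. The 3 windows of Bcl2l1 held none and were 47.6% to 53.2% G and C, near the median of 52.4% over all promoters. Windows of the other members were richer in G and C, up to 81.6% for Bbc3, and windows of Bbc3 overlap in part. The shares were not matched for either. Of the other motifs searched, the CCAAT box was in 3 member windows (33.8% of all promoters). The E box was in 2 (6.02%) and an E2F site in 1 (1.86%). A match of letters is a description and not a binding site.

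Of the BH3-only genes, Bcl2l11 had a 2.05-fold range over the 8 libraries and Bbc3 a 6.24-fold range. Bcl2l11 was at 6.26 FPKM at E15 and 6.25 at E18, at 8.20, 8.18 and 3.99 FPKM in Cd73NC at P2, P5 and P8, and at 5.87, 4.48 and 4.05 FPKM in Cd73PC. Log2 ratios between the fractions were -0.42, -0.74 and 0.02, and their bounds overlapped only in the P8 libraries, where Cd73NC stood at the level of Cd73PC. The P5 ratio was -0.40 with quantile normalization, under the threshold.

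Bbc3, a direct target gene of Trp53, was the one member whose fractions crossed past the threshold in both directions. It was at 9.17 FPKM at E15 and 7.28 at E18. In Cd73PC it was at 5.71, 2.64 and 1.47 FPKM at P2, P5 and P8, and in Cd73NC at 2.95, 2.21 and 7.28 FPKM. With 1 FPKM added to each value, Cd73PC was 1.70-fold higher at P2 and Cd73NC was 3.35-fold higher at P8. At P5 the bounds of the fractions overlapped (log2 ratio 0.18, or 0.59 and past the threshold with quantile normalization). Trp53 itself was lower in Cd73PC than in Cd73NC at all 3 stages, at 33.4 against 54.7, 28.3 against 55.1 and 17.7 against 30.4 FPKM. Beside this turn, the 5 microglial markers had a median log2 ratio between the fractions of 1.78 at P2 and -0.34 at P8, and the 4 bipolar markers 0.02 and -3.23. All 5 microglial and all 4 bipolar markers were higher at P8 than at P2 in Cd73NC, with medians of 3.30 and 6.68. They were also all higher at P8 in Cd73PC, where Bbc3 was lower, with medians of 1.23 and 2.85. In Cd73NC all 6 rod and all 3 cone markers were higher at P8 as well, with medians of 4.22 and 1.05. The part of any cell type in the turn of Bbc3 was not tested.

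Of the apoptosome genes, Apaf1 was nearly equal at E15 (8.07 FPKM) and E18 (8.08 FPKM). It was at 9.08, 7.29 and 5.72 FPKM in Cd73NC at P2, P5 and P8 and at 6.57, 3.55 and 2.46 FPKM in Cd73PC. The P5 and P8 Cd73PC libraries were the lowest 2 of the 8, with bounds apart from each other and from the rest. On the FPKM + 1 scale, Cd73NC was 1.33, 1.82 and 1.94 times Cd73PC in order of age. Quantile normalization took the P5 and P8 log2 ratios from -0.86 and -0.96 to -0.48 and -0.47, under the threshold.

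Casp9 was at 13.0 FPKM at E15, 11.7 at E18, 8.73, 13.4 and 12.4 in Cd73NC and 12.9, 10.8 and 8.76 in Cd73PC at P2, P5 and P8. It did not pass 1.5-fold in any of the 6 comparisons as deposited, its whole range was 1.54-fold, and 6 of 7 neighbouring pairs had overlapping bounds. Between the fractions, its bounds were apart at each stage. The fractions were on opposite sides at P2 (log2 ratio 0.51, or 0.61 and past the threshold with quantile normalization) and P8 (-0.45). Casp9 was 1.96, 3.05 and 3.56 times Apaf1 in Cd73PC at P2, P5 and P8, and 0.961, 1.84 and 2.16 times in Cd73NC. Its exons overlap those of Cela2a on the other strand by 94 bases, and Cela2a did not exceed 0.0766 FPKM.

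Over time within Cd73PC, all 9 members had a log2 ratio below 0 at P8 against P2 as deposited, and Bak1, at -0.05, moved to 0.09 and 0.14 with upper-quartile scaling and quantile normalization. Of the 9, 2 passed 1.5-fold lower (Bbc3 at -1.44 and Apaf1 at -1.13; background 23.7%) and 0 passed it higher (background 10.3%). Without a pseudocount, or with 0.1, Bcl2 was also called lower, at -1.48 or -1.25 in place of -0.54. The median was -0.44, beside -0.18 over all expressed genes. Bcl2, Mcl1, Bcl2l11, Bbc3, Apaf1 and Casp9 were lower at each step from P2 to P5 to P8, a course shared by 40.2% of expressed genes, and Bcl2l1, Bax and Bak1 were highest at P5. The P2 and P8 bounds were apart for 8 of the 9 genes and overlapped for Bak1.

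Within Cd73NC, Bbc3 was higher at P8 than at P2 (log2 ratio 1.07; 1 of 9 higher, background 20.9%) and Bcl2, Bcl2l11 and Apaf1 were lower at -0.62, -0.88 and -0.59 (3 of 9, background 23%). Bcl2 and Apaf1 dropped under the threshold with upper-quartile scaling. The median was -0.23, beside -0.05 over all expressed genes. Lower levels at each step were seen for 4 of the 9, a course shared by 30.9% of expressed genes.

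Between E15 and E18 whole retinas, little differed among the 9 genes. Bcl2 was lower at E18 (log2 ratio -0.59, just past the threshold; 1 of 9, background 3.31%) and 0 were higher (background 7.37%). Bcl2 and Bak1 (0.41) had bounds apart and the other 7 had overlapping bounds. The median was -0.002 beside 0.04 over all expressed genes. The summed guardians were 1.59 and 1.31 times the summed effectors at E15 and E18, 1.19, 2.02 and 1.15 times in Cd73NC at P2, P5 and P8, and 1.77, 1.84 and 1.85 times in Cd73PC. Bax in all libraries and Bcl2l1 in most entered these sums with deposited values above their own upper bounds.

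The wider pathway was described with a list of 47 other genes, of which 38 were expressed and 9 stayed below 1 FPKM in every library. In the P2 pair of fractions, 5 of the 38 were higher and 11 lower in Cd73PC. The P5 pair had 5 higher and 12 lower, and the P8 pair 7 higher and 11 lower, beside the background shares given above. With quantile normalization the splits were 6 to 9, 9 to 6 and 11 to 6, so that the side with more calls turned at P5 and P8. Bmf, Xiap and Ddit3 were higher in Cd73PC at all 3 stages, and Bok, Bid, Casp2, Casp6, Tradd, Trp53 and E2f1 were among the genes lower at all 3. With quantile normalization, Bmf, Xiap and Ddit3 were still higher at all 3, joined by Cflar and Endog, and of those that were lower Bid, Casp6 and E2f1 were still called at all 3.

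Of the upstream regulators, E2f1, a factor of the G1 to S transition that can also induce apoptosis genes, was at 18.6, 6.39 and 1.19 FPKM in Cd73PC and 63.9, 25.0 and 6.30 FPKM in Cd73NC at P2, P5 and P8. Its level was lower in Cd73PC and lower with age, as the summed markers of dividing cells were. Cdkn1a, a cell cycle inhibitor and Trp53 target, was lower in Cd73PC at P2 (3.19 against 6.49 FPKM) and under the threshold at P5 and P8. Ddit3, a factor of the endoplasmic reticulum stress response, was at 23.8, 37.4 and 46.6 FPKM in Cd73PC and 14.6, 19.3 and 24.6 FPKM in Cd73NC. Jun, a factor of the stress kinase pathway, had log2 ratios between the fractions of -0.29, -0.04 and 0.28.

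The other effector, Bok, was at 4.40, 3.47 and 3.06 FPKM in Cd73PC and 8.80, 6.09 and 5.14 FPKM in Cd73NC. Among the 5 other BH3-only genes that were expressed, Bid, which links death receptors to mitochondria, and Bmf stood at opposite ends. Bid was at 2.35, 1.37 and 0.495 FPKM in Cd73PC and 5.91, 3.89 and 4.03 FPKM in Cd73NC. Bmf was at 5.04, 5.70 and 11.98 FPKM in Cd73PC and 1.16, 2.42 and 2.34 FPKM in Cd73NC, a log2 ratio of 1.49, 0.97 and 1.96. At P8 in Cd73PC, Bmf had a level above those of Bcl2l11 and Bbc3. Hrk was at 2.17 FPKM at E15 and 1.59 FPKM at E18 and at or below 0.526 FPKM after birth.

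Among the other caspases, Casp2 and Casp6 were lower in Cd73PC at each stage. Casp2, an initiator-type caspase, was at 16.3, 10.2 and 6.40 FPKM in Cd73PC and 42.6, 26.3 and 12.4 FPKM in Cd73NC at P2, P5 and P8. Casp6 was at 8.67, 6.53 and 2.96 FPKM in Cd73PC and 18.1, 14.3 and 7.71 FPKM in Cd73NC. Casp8, the initiator of the death receptor arm, was lower in Cd73PC at P2 (1.19 against 3.25 FPKM) and under the threshold at P5 and P8.

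**Figure D4:**
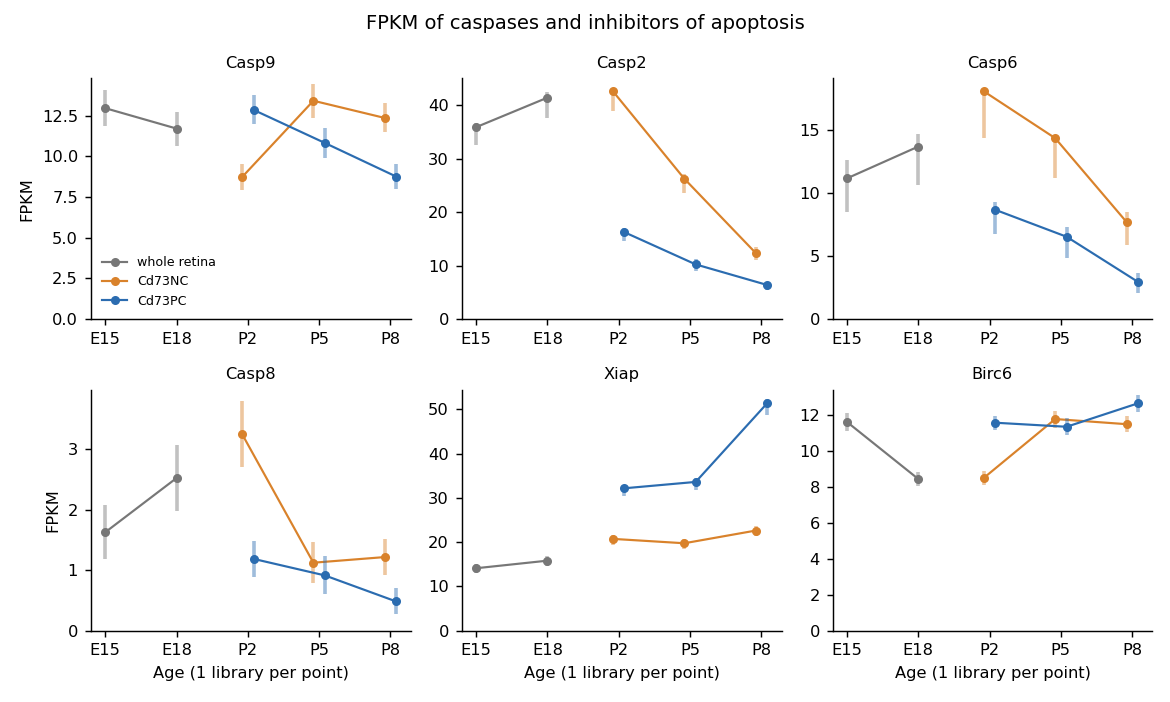
FPKM (vertical axis, from 0) against age for Casp9, Casp2, Casp6 and Casp8 and for Xiap and Birc6, members of the inhibitor of apoptosis family, with colours and pale bars as in the plot of the 9 genes. Casp2 and Casp6 are lower and Xiap is higher in Cd73PC than in Cd73NC at each stage, and Birc6 is close in both fractions at P5 and P8.

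Xiap, which binds and inhibits Casp9 and other caspases, was at 32.2, 33.6 and 51.3 FPKM in Cd73PC and 20.7, 19.8 and 22.6 FPKM in Cd73NC, with log2 ratios of 0.61, 0.74 and 1.15. The other expressed inhibitors, Birc2 and Birc6, were within 1.5-fold at each stage. Of 7 mitochondrial factors, none was called at P2, and Htra2 and Endog were higher in Cd73PC at P5 and P8, and Vdac1 was lower at P8. Endog, a mitochondrial nuclease, was at 4.41, 6.97 and 10.2 FPKM in Cd73PC and 2.81, 3.91 and 4.99 FPKM in Cd73NC. In the death receptor arm, Tradd, an adaptor, was lower in Cd73PC at each stage (1.71 to 2.74 against 3.46 to 4.77 FPKM), and Cflar, an inhibitor of Casp8, was at 10.5 to 10.9 FPKM in Cd73PC and 4.64 to 7.12 FPKM in Cd73NC. Tnfrsf1a, a receptor for tumour necrosis factor, was at 9.89, 5.62 and 2.41 FPKM in Cd73PC and 8.30, 8.91 and 4.45 FPKM in Cd73NC.

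The genes whose course was most like that of each member were sought by Pearson's r of log2(FPKM + 1) over the 8 libraries among 7676 genes. Each of these had at least 10 FPKM in some library and a range of FPKM + 1 of at least 1.5-fold. The 8 libraries differ in age, fraction and cell makeup, and a high r cannot tell these apart. How common high values were over all the searched genes was not counted. Bcl2 was most like Tubb3 (r = 0.995), a neuronal tubulin, and Apaf1 most like Marcks (r = 0.995). Mcl1 was most like Ctnnd1 (r = 0.989), Bcl2l11 like Ptrh2 (r = 0.981), Bcl2l1 like Brf1 (r = 0.980) and Bak1 like Gmppa (r = 0.977). Bbc3 was most like Prr24 (r = 0.950), Casp9 like Mapk3 (r = 0.909) and Bax like Hsbp1 (r = 0.869), the lowest of the 9 leading values. Among the members themselves, Apaf1 and Mcl1 had the highest r (0.904) and Bcl2l1 and Bak1 the lowest (-0.761).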

How the data were processed

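RNA was measured in 8 libraries, 1 per condition, grouped by the age, tissue and Cd73 status in the labels. Poly(A) RNA was sequenced as short single-end reads with a kit that does not mark strand. Per the labels, the authors aligned reads to mm9 with TopHat2 2.0.8b and Cufflinks 2.1.1 gave the deposited FPKM values with lower and upper bounds; CASAVA 1.8.2 and bcl2fastq 1.8.4 are also named. Read counts were not used here. Relative depth, read from the smallest FPKM steps of low rows, was 0.966 to 1.62 times that of E18.

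The 8 tables were joined by identifier and locus with pandas 2.3.3. The 797 small RNA rows were left out, rows of the same symbol were summed, and the 4 to 10 failed estimates per library were taken as missing. Ratios were taken on log2(FPKM + 1) with a threshold of 1.5-fold, over genes with at least 1 FPKM in some library. With 1 library per group there was no test. The code was tested on simulated data. Alternatives were a pseudocount of 0.1 or none, upper-quartile and quantile scaling, no filter, unsummed rows and a 2-fold threshold. The members and lists were chosen with earlier results of these data known. Named beside the members were pathway genes past 1.5-fold in 1 direction at P2, P5 and P8, up to 12, the 8 others with the widest range of log2(FPKM + 1), and for likeness the 3 genes with the highest r, of which the first is printed. Other genes of the pathway list were named after their values were seen. Coding sequences came from GENCODE vM1 on NCBIM37, the build of the files, and promoters from a RefSeq table. Some genes of the pathway list are counted but not reported here by name.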

Additional observations from a re-analysis of the deposited data

Results flagged for a closer look

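The difference between the fractions turned over with age for Bbc3. Between the fractions, Cd73PC over Cd73NC, its log2 ratios were 0.77 in the P2 pair and -1.74 in the P8 pair, a difference of 2.509. Put as courses, its log2 ratio of P8 to P2 was -1.44 in Cd73PC and 1.07 in Cd73NC, a difference of -2.509, which is the same 4 libraries in another order and no second observation. With 1 library per condition this difference was not tested.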

How the results depend on the processing

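No call of a member turned to the other direction under any alternative run. With a 2-fold threshold, the members called were 2 at P2, 1 at P5 and 1 at P8 between the fractions, 0 for E18 against E15 and 1 for P8 against P2 in Cd73NC. The other pathway genes called were 5, 4 and 7 between the fractions, 0 for E18 against E15, 8 for P8 against P2 in Cd73PC and 5 in Cd73NC, and the background, both directions together, was 18.8%, 18.25%, 24.23%, 3.475%, 14.95% and 23.56% in this order. Without the filter on low values the background was 22.96%, 22.57%, 26.1%, 6.702%, 21.07% and 27.85%, since more genes entered it. Quantile normalization gave 3 called members at P5 (Bak1, Bcl2l11 and Apaf1 were lost and Bbc3 was gained), 1 at P8 (Bcl2, Bak1 and Apaf1 were lost) and 1 other pathway gene at E18 against E15. Upper-quartile scaling gave 2 members for P8 against P2 in Cd73NC. For E18 against E15, the other pathway genes called were 6 without a pseudocount and 5 with 0.1, and the background 17.75% and 17.02%. The cause of the moves under scaling was not tested. The median log2 ratio of all expressed genes at P8 between the fractions went from -0.22 as deposited to -0.09 with upper-quartile scaling and 0.02 with quantile normalization, and that of P8 against P2 in Cd73PC from -0.18 to -0.06 and -0.01. Without P5, a choice made after the values were seen, Bcl2 and Bak1 were the 2 members called in 1 direction at P2 and P8. No replicate could be left out because each group had 1 library. Both fractions of an age were sorted from the same retinas, which gives 1 pair per age, and no paired analysis was run. Bcl2 and Bbc3 have the widest bounds.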

Other observations

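The guardian genes Bcl2a1a, Bcl2a1b and Bcl2a1d are near-identical copies among which short reads can be split, so their values are uncertain. All 3 were higher at P8 than at P2 in Cd73NC, at 0.764 against 0.0293, 1.55 against 0.124 and 0.912 against 0.117 FPKM. Bcl2a1a and Bcl2a1d stayed below 1 FPKM in every library. In the same comparison all 5 microglial, 4 bipolar, 6 rod and 3 cone markers were higher. All 5 markers of dividing cells, 4 ganglion and 2 horizontal markers were lower, and Müller glia, amacrine and endothelial markers were mixed. The part of any cell type in these values was not tested. Bcl2l2, another guardian, was at 13.2, 17.1 and 21.1 FPKM in Cd73PC at P2, P5 and P8 and 9.09, 11.5 and 14.6 FPKM in Cd73NC, with log2 ratios of 0.49, 0.54 and 0.50, under the threshold. Foxo3, a factor that can induce Bcl2l11 and Bbc3, was at 35.8, 34.3 and 33.9 FPKM in Cd73PC and 19.1, 31.7 and 19.4 FPKM in Cd73NC at P2, P5 and P8. It was called higher in Cd73PC at P2 and P8, and at P5 the bounds overlapped (log2 ratio 0.11). The death receptor Fas did not exceed 0.155 FPKM and its ligand Fasl 0.0813 FPKM in any library. Dffb, a nuclease that cuts DNA in dying cells, and Dffa, its inhibitor, were within 1.5-fold in all 6 comparisons.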
